A study of Mus musculus with 6 samples.

Results

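miRNAs whose expression is largely restricted to blood cells, endothelium or striated muscle were used here to read what other cells the sorted dermal populations held. The array names were taken by stem (miR-142, miR-144, miR-150, miR-223, miR-451a, miR-126, miR-1a, miR-133a and miR-206, both arms), which gave 13 of the 690 mouse miRNA names on the array. Of these, 7 are blood names, 2 endothelial and 4 striated muscle names. The rule uses names alone, although it was set with earlier results of these data known.

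The wound group held CD45-negative, CD31-negative cells with high GFP from wounds of SMA-GFP transgenic mice 7 days after injury, labelled myofibroblasts. The skin group held CD45-negative, CD31-negative cells with low GFP from the dermis of the same kind of mouse, labelled fibroblast-like cells. GFP in these mice reports smooth muscle actin (SMA), so it marks pericytes and smooth muscle as well as contractile fibroblasts. CD45 is carried by leukocytes and CD31 by endothelium, while mature red cells carry neither, as background knowledge. Wound preparations 3, 4 and 6 and skin preparations 1, 2 and 5, numbered as in their titles, each went on an array of their own. No source used here says whether animals were pooled or whether preparations came from separate animals, so a p-value here speaks only of the spread among preparations, part or all of which may be technical. Wound against skin and high against low GFP cannot be told apart in this design.

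These miRNAs are textbook markers of their lineages. miR-142 is made throughout the haematopoietic system, miR-223 in granulocytes and monocytes, miR-150 in mature lymphocytes, and miR-144 with miR-451a from a single erythroid cluster. miR-126 lies in an intron of Egfl7 and is a hallmark of endothelium, where it tunes signalling by vascular growth factors. miR-1a and miR-133a are transcribed together in heart and skeletal muscle, and miR-206, a relative of miR-1a, is a skeletal muscle miRNA. Mouse skin holds blood vessels, blood and a sheet of striated muscle, the panniculus carnosus, so each of these tissues can enter a dermal digest.

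RefSeq (GRCm38.p6) gave a mature sequence for 8 of the 13 names, all from the plus strand. They are shown since each lineage is read through its own sequences: no seed (bases 2 to 8, in capitals) is shared between any of the 8. They are 20 to 23 bases long, with a G and C content between 30.0% for miR-144-3p and 63.6% for miR-150-3p. RefSeq lists miR-126-3p and the miR-142 arms under miR-126a and miR-142a. The genes lie on chromosome 2 (miR-126), 11 (miR-142, and the neighbours miR-144 and miR-451a), 7 (miR-150), X (miR-223) and 1 (miR-206).
mmu-miR-126-3p: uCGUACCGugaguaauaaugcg
mmu-miR-451a: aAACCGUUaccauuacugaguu
mmu-miR-144-3p: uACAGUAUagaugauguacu
mmu-miR-142-3p: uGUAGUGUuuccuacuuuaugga
mmu-miR-142-5p: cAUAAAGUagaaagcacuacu
mmu-miR-223-3p: uGUCAGUUugucaaauacccca
mmu-miR-150-3p: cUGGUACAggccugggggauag
mmu-miR-206-3p: uGGAAUGUaaggaagugugugg
miR-126-5p, miR-150-5p, miR-1a-3p, miR-133a-3p and miR-133a-5p are named only.

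Each name was read by 20 spots per array, from 2 probes in 10 spots each, or from 4 probes in 5 spots each for miR-150-3p. The scanner software gives each spot a flag for a signal positive and significant against background and a stricter one for a signal well above background. None of the 82800 spots of the 6 arrays had the second flag without the first. A name counted as well above background on an array when over 50% of the spots of at least 1 of its probes carried the stricter flag. By that rule 187 to 233 of the 690 names were well above background per array, or 27.1% to 33.8%. No spot was saturated, and precision is limited by having 3 arrays in a group.

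Endothelial miR-126-3p was well above background on every array, erythroid miR-451a on 2 skin arrays, and the other 11 names on none. Per array this made 1 name on wound 3, 1 on wound 4 and 1 on wound 6, against 2 on skin 1, 1 on skin 2 and 2 on skin 5. The groups overlapped, and the difference of -0.67 names (wound minus skin) had p = 0.4 in an exact two-sided permutation test over arrays, which cannot go below 0.1 with 3 arrays in each group. Counted in spots without outlier flags, 7.92% ± 0.33 (mean ± SD, n = 3) of the spots of the 13 names were well above background on the wound arrays and 10.01% ± 1.92 on the skin arrays (exact permutation p = 0.3). With outlier spots kept, the shares were 7.82% in wound and 10.4% in skin. Over all miRNA spots, outlier spots kept, the share was 23.8% to 29.3% per array. The same rule found 13 of 15 names of a mesenchymal list (miR-199, miR-214, miR-143, miR-145, miR-21, miR-29a, miR-152 and miR-22) on each wound array and 11 to 12 on each skin array. Of 29 names typical of tissues outside skin, such as liver, neurons, pancreas and embryonic stem cells, it found 0 on each wound array and 0 to 2 on the skin arrays.

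**Figure D1:**
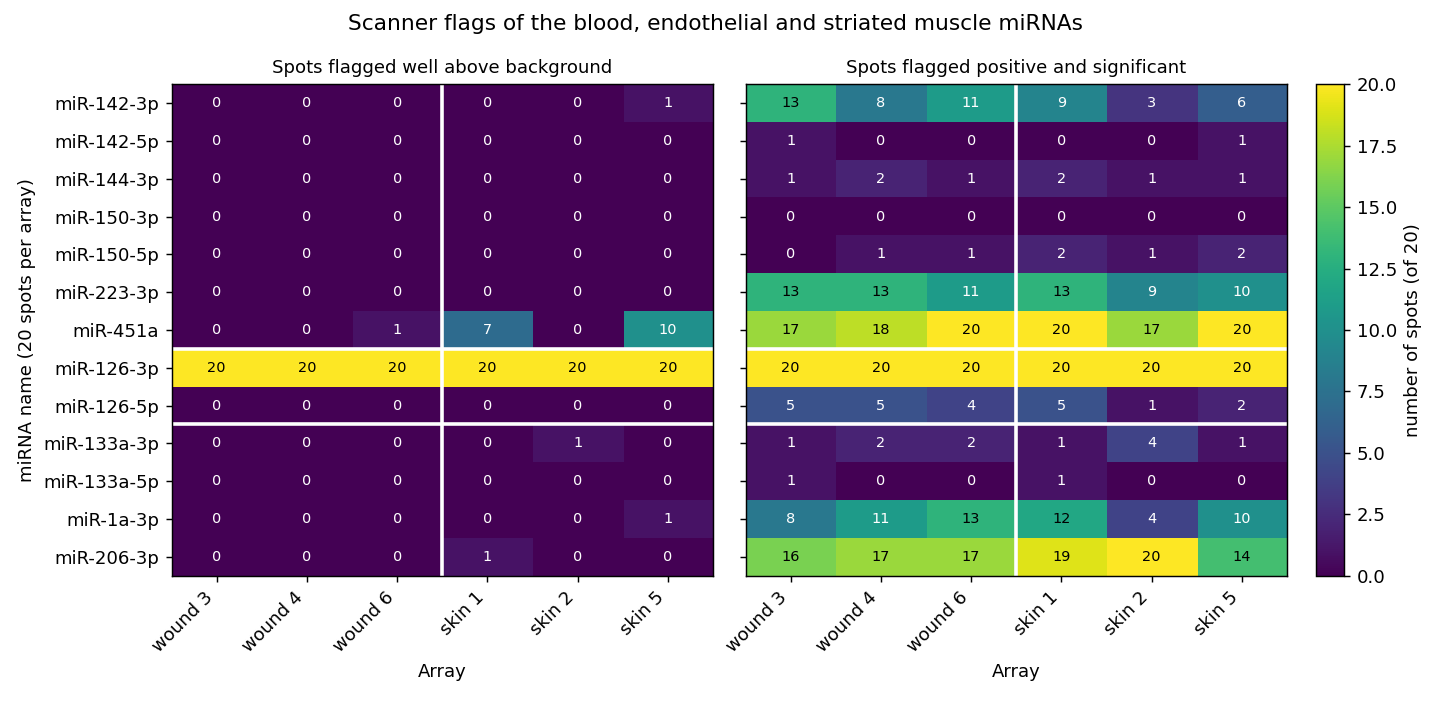
Number of spots, of 20 per miRNA name and array, flagged well above background (left) and flagged positive and significant (right), for 7 blood, 2 endothelial and 4 striated muscle names (separated by white lines) on 3 wound and 3 skin arrays. Only miR-126-3p had all 20 spots under both flags on every array, and miR-451a reached 7 and 10 spots well above background on skin 1 and skin 5.

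mmu-miR-126-3p, the endothelial miRNA, was measured above background in both groups, and its unscaled signal overlapped between them. The mean intensity over its probes was 56.6, 56.9 and 74.3 units on wound arrays 3, 4 and 6, against 63.2, 71.7 and 62.9 on skin arrays 1, 2 and 5. The wound values enclosed the skin values, with 62.6 ± 10.1 in wound and 65.9 ± 4.98 in skin (SD, n = 3 each; exact permutation p = 0.6). All 60 spots in each group were well above background. A probe's spots on 1 array had an SD of 5.28 to 11.9 units.

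The probe A_54_P2285 read 44.7, 47.8 and 61.2 units in wound and 52.2, 59.5 and 50.2 in skin. A_54_P2286 read 68.5, 66.0 and 87.4 in wound and 74.2, 83.9 and 75.7 in skin. After scaling, the wound minus skin difference was 0.50 on the log2 scale for either probe, and in both the wound and skin arrays overlapped.

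Scaling divides each array by its 75th percentile over probes well above background on all arrays. That percentile was 786 to 1136 units on the wound arrays and 1244 to 1772 on the skin arrays, without overlap (exact permutation p = 0.1, the smallest possible). As a percentage of it, miR-126-3p stood at 7.20%, 5.19% and 6.54% in wound and 4.25%, 5.76% and 3.55% in skin. Wound 4 lay below skin 2, so the groups overlapped on this scale too. The scaling percentile moved with the groups, and without scaling the wound minus skin log2 difference was -0.08.

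In limma, fitted on all 222 names that passed the filter on dim signals, the scaled log2 level of miR-126-3p averaged -4.00 ± 0.24 in wound and -4.50 ± 0.35 in skin (SD, n = 3 each). The difference was 0.50 (SE 0.22, 95% interval -0.08 to 1.08), a 1.41-fold higher mean in wound, with a Benjamini-Hochberg adjusted p of 0.109. Over all tested names the median difference was 0.38, so miR-126-3p stood 0.12 above it. Of the tested names 64.9% passed an adjusted p of 0.05 (44.1% higher and 20.7% lower in wound, a split of 98 to 46 that became 52 to 76 with the 75th percentile of all probes), and in 69.8% the wound and skin values did not overlap. miR-126-3p, the only one of the 13 names that passed the filter, was among neither.

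Whether miR-126-3p passed depended on the slide row and on 1 skin preparation. The 6 arrays shared a slide, with wound 3, skin 1 and skin 2 in its first row and wound 4, wound 6 and skin 5 in its second. Within the first row the scaled wound minus skin log2 difference was 0.54, and within the second 0.71. Unscaled, wound minus skin was -10.8 intensity units within the first row and 2.65 within the second. With the row as a block, miR-126-3p passed (difference 0.63, limma adjusted p = 0.042), and it also passed with array weights (0.71, adjusted p = 0.027) and without skin 2 (0.70, adjusted p = 0.035). The direction turned with the 75th percentile of all probes (-0.19) and with quantile normalization (-0.22), while median scaling gave 0.09, and none of these passed. Fewer cells carrying miR-126 and less of it per cell cannot be told apart in such bulk RNA.

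**Figure D2:**
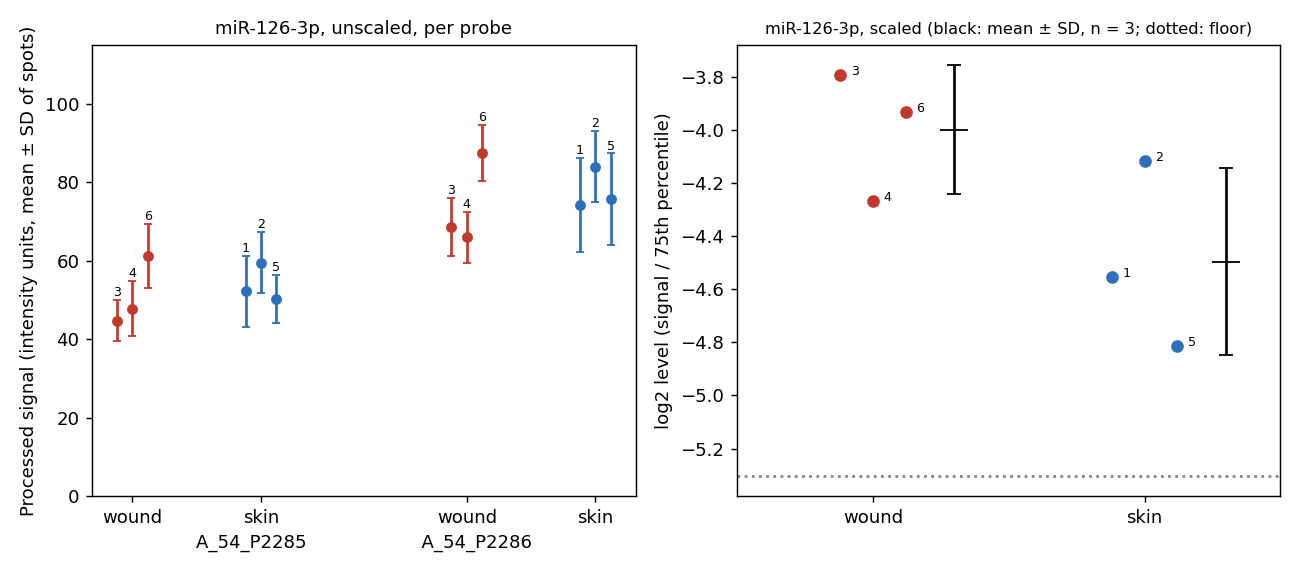
miR-126-3p on 3 wound and 3 skin arrays. Left, unscaled processed signal in intensity units for each of 2 probes, with bars for the SD of spots; right, log2 level after scaling, with the mean ± SD of 3 arrays in black and the floor for dim signals dotted. Wound and skin values overlap in both panels, and the lowest scaled value is that of skin 5.

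**Figure D3:**
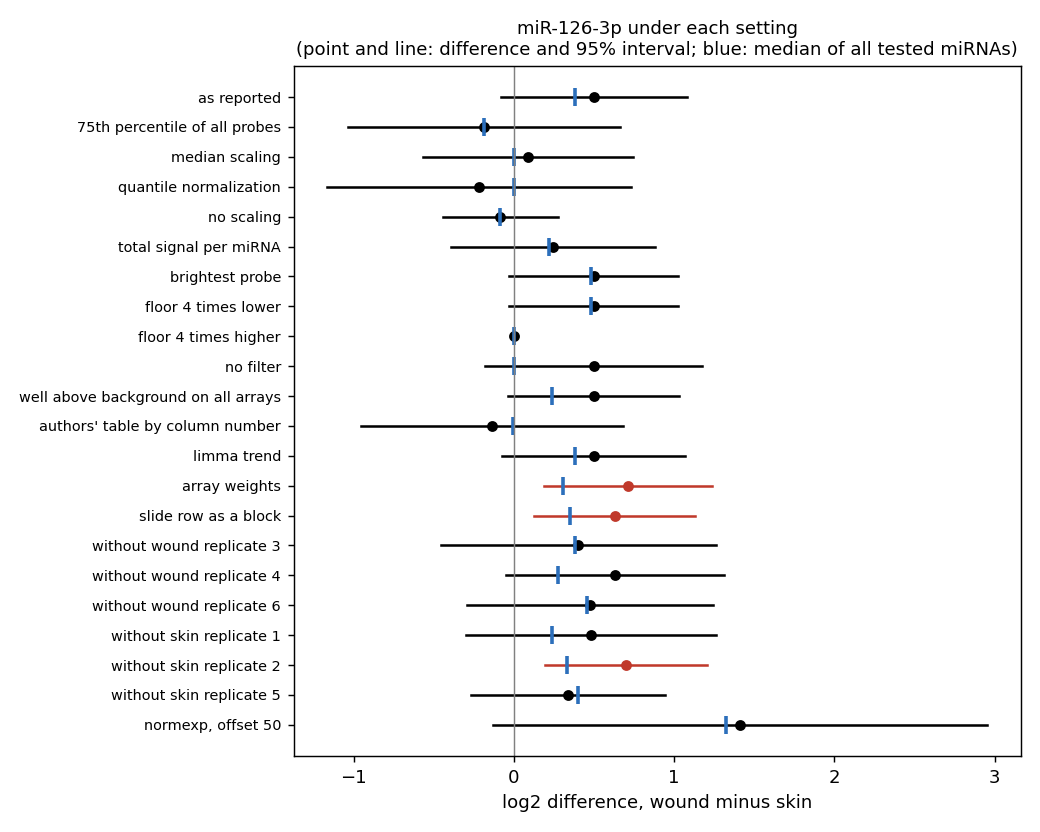
Wound minus skin log2 difference of miR-126-3p under 22 settings, with 95% intervals; red marks an adjusted p under 0.05 and the blue tick the median difference of all tested miRNAs. Points run from -0.22 to 1.41, 3 of 22 are red, and 4 lie below 0; of these, the authors' deposited table by column number (-0.14) sets mixed arms against each other, since its columns equal other arrays than their numbers name.

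The other arm of the same hairpin, miR-126-5p, stayed near background. Its 20 spots per array averaged 4.18, 3.96 and 4.41 units in wound, against 4.00, 0.85 and 1.35 in skin, with 0 of 120 spots well above background. Positive and significant spots numbered 14 of 60 in wound and 8 of 60 in skin. The unscaled groups overlapped (exact permutation p = 0.2). As a percentage of the scaling percentile all wound values, 0.361% to 0.532%, lay above the skin values, 0.068% to 0.269% (exact permutation p = 0.1). Of the tested names 69.8% did not overlap, but those had passed the filter on dim signals, unlike miR-126-5p.

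The candidates for a similar array profile were miRNAs detected well above background on each of the 6 arrays. The 3 whose array profile lay closest to miR-126-3p were miR-214-3p, miR-1937b_v16.0 and miR-345-5p. The measure was the root mean square difference between log2 profiles over the 6 arrays, each centred on its own mean. It was 0.211 for miR-214-3p, 0.211 for miR-1937b_v16.0 and 0.213 for miR-345-5p, against a median of 0.512 over 155 candidates. miR-214-3p, of a mesenchymal cluster, differed by 0.45 (limma adjusted p = 0.106). miR-1937b_v16.0, a name kept from an older registry version, differed by 0.82 (adjusted p = 0.055), and miR-345-5p by 0.68 (adjusted p = 0.0028). Over 5 scalings, no scaling included, the difference ran from -0.24 to 0.68 for miR-214-3p, from -0.01 to 0.82 for miR-1937b_v16.0 and from -0.0035 to 0.68 for miR-345-5p.

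Of the blood names, miR-451a was the only one well above background on any array. It is an erythroid miRNA, abundant in red cells, which lack CD45. Its mean intensity was 12.2, 15.6 and 18.2 units in wound, against 31.6, 13.3 and 29.9 in skin. Skin 1 and skin 5 stood above the other arrays while skin 2 lay within the wound range, so the groups overlapped (15.3 ± 3.02 in wound and 25.0 ± 10.1 in skin, exact permutation p = 0.3).

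Its 2 probes disagreed on detection by the stricter flag. With A_54_P1626, which read 15.3, 21.2 and 23.6 units in wound and 39.9, 18.9 and 39.9 in skin, 0, 0 and 1 of 10 wound spots and 7, 0 and 10 of 10 skin spots were well above background. A_54_P1625, at 9.03 to 12.8 units in wound and 7.78 to 23.4 in skin, had 0 of 60 such spots. Positive and significant were 60 of 60 spots of A_54_P1626 and 52 of 60 of A_54_P1625. Over both probes these were 55 of 60 in wound and 57 of 60 in skin. The software's own flag for a detected miRNA was set on wound 4, wound 6, skin 1 and skin 5.

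After scaling, the contrast between skin 1, skin 5 and the rest shrank. miR-451a stood at 1.55%, 1.43% and 1.60% of the 75th percentile in wound, and at 2.13%, 1.07% and 1.69% in skin, with the wound values inside the skin range (exact permutation p = 0.7). It was not tested in limma, since it was well above background on 2 of 3 skin arrays and on no wound array. Its scaled mean lay under the floor for dim signals on every array, so no fold is given. Within the first slide row wound minus skin was -10.3 intensity units, and within the second -13.0.

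mmu-miR-144-3p, its cluster neighbour, gave no signal above background. Its mean intensity was -0.69, -0.59 and -2.94 units in wound and -0.02, -0.07 and -2.36 in skin, where values around 0 are background. Of 120 spots 0 were well above background, and 4 of 60 in either group were positive and significant.

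Of the leukocyte names, miR-142-5p, miR-150-3p and miR-150-5p stayed near background. mmu-miR-142-5p averaged -4.46 to -1.58 units in wound and -5.02 to -1.72 in skin, with 2 of 120 spots positive and significant. miR-150-3p had 0 such spots of 120 and miR-150-5p 7. None of these 3 had a spot well above background on any array. Negative-control spots carried the positive flag in 4.15% to 10.1% of cases per array, and these 3 names and miR-144-3p in 0% to 10% (0 to 2 of 20 spots). On skin 5, where 4.15% of control spots were positive, miR-150-5p had 10% and miR-144-3p and miR-142-5p had 5% each.

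miR-142-3p and miR-223-3p carried the positive flag more often, on 41.7% and 57.5% of their spots. Negative-control spots carried it in 4.15% to 10.1% of cases per array. mmu-miR-142-3p, the pan-haematopoietic arm, averaged 7.73, 5.94 and 6.10 units in wound and 6.01, 0.12 and 3.45 in skin. Skin 1 exceeded wound 4, so the groups overlapped narrowly (exact permutation p = 0.2). As a percentage of the scaling percentile it stood at 0.983%, 0.543% and 0.537% in wound and 0.404%, 0.0095% and 0.195% in skin. On that scale every wound value exceeded every skin value (exact permutation p = 0.1, the smallest possible). The percentile itself was lower on each wound array than on any skin array, and 69.8% of the tested names did not overlap after scaling. Those names had passed the filter on dim signals, unlike miR-142-3p, and the share among names near background was not computed. miR-133a-5p, whose mean intensity was negative on every array, separated in the opposite direction, at -0.490% to -0.475% in wound and -0.303% to -0.149% in skin. The cause of either separation was not tested. miR-142-3p had 32 of 60 positive spots in wound and 18 of 60 in skin, and 1 spot in all, on skin 5, was well above background.

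miR-223-3p, the granulocyte and monocyte miRNA, averaged 8.10, 10.65 and 6.62 units in wound and 10.15, 6.47 and 8.21 in skin. The groups overlapped (exact permutation p = 0.8), with 37 of 60 positive spots in wound and 32 of 60 in skin and 0 of 120 well above background. The signal came mainly from the probe A_54_P2630, with 54 of 60 positive spots, against 15 of 60 for A_54_P2629.

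**Figure D4:**
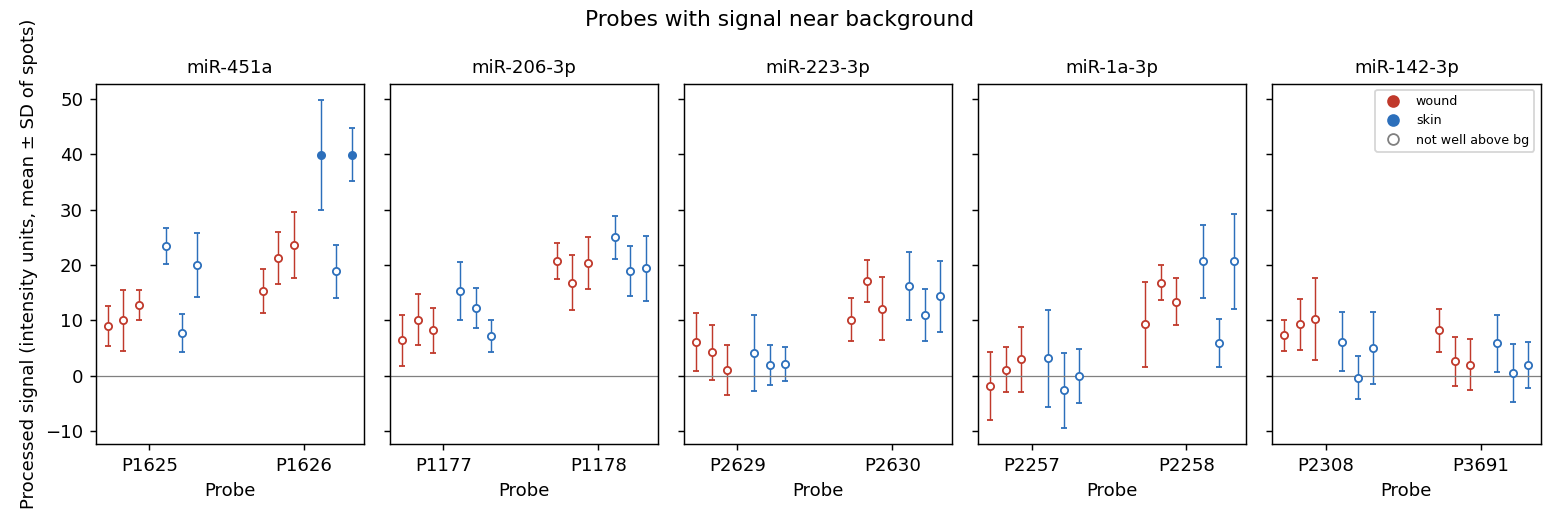
Processed signal in intensity units of both probes of miR-451a, miR-206-3p, miR-223-3p, miR-1a-3p and miR-142-3p on 3 wound (red) and 3 skin (blue) arrays; bars are the SD of spots, and filled points have over 50% of spots well above background. Only skin 1 and skin 5 for probe P1626 of miR-451a, at 39.9 units each, are filled.

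No striated muscle name was well above background on any array. miR-206-3p, a skeletal muscle miRNA, had the most positive spots of the 4: its mean intensity was 13.6, 13.5 and 14.3 units in wound, against 20.2, 15.6 and 13.3 in skin. Skin 1 was the highest and skin 5 the lowest, so the wound values fell inside the skin range (exact permutation p = 0.4). It had 50 of 60 positive spots in wound and 53 of 60 in skin, but 1 of 120 well above background, on skin 1. The software called it detected on wound 3, wound 6 and skin 1.

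miR-1a-3p, of heart and skeletal muscle, averaged 3.72, 8.95 and 8.17 units in wound and 11.9, 1.67 and 10.35 in skin, again with the wound values inside the skin range (exact permutation p = 0.7). Of its probes A_54_P2258 had 49 of 60 positive spots and A_54_P2257 9 of 60. miR-1a and miR-206 share their seed, as background knowledge, and how much of either signal comes from the other was not tested. miR-133a-3p, transcribed together with miR-1a, averaged -0.98 to 0.08 units in wound and -1.95 to 3.24 in skin, with 11 of 120 positive spots. miR-133a-5p had 2 of 120.

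On no array did 416 of the 690 names reach the level well above background, and the 11 members among them spread widely in their share of positive spots. The median over the 416 names was 8.33%. miR-206-3p at 85.8%, miR-223-3p at 57.5%, miR-1a-3p at 48.3% and miR-142-3p at 41.7% lay above it, and 5, 19, 30 and 44 of the 416 names had higher shares. miR-126-5p (18.3%) and miR-133a-3p (9.17%) were also above the median. miR-144-3p (6.67%), miR-150-5p (5.83%), miR-142-5p and miR-133a-5p (1.67% each) and miR-150-3p (0%) were below it. A high share of this flag also occurred for a name of a tissue that the sort should not hold. miR-294-3p, known from embryonic stem cells and named here after its value was seen, had 104 of 120 positive spots. It was well above background on 0 of 6 arrays. It had the most positive spots of the 29 other-tissue names, whose list shares were 24.9% in wound and 22.7% in skin.

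**Figure D5:**
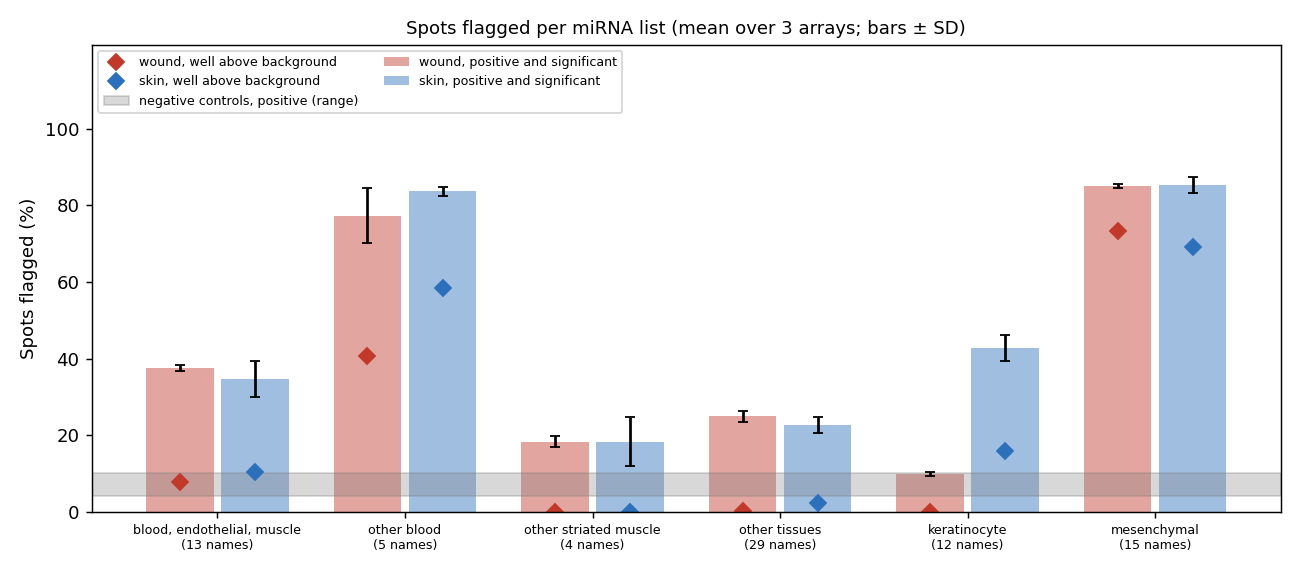
Spots flagged positive and significant (bars, mean ± SD of 3 arrays) and well above background (diamonds, mean of 3 arrays), in percent of the spots of each miRNA list, for wound and skin; the grey band is the range of positive negative-control spots over the 6 arrays. The 13 blood, endothelial and muscle names had 37.6% positive spots in wound and 34.7% in skin, between the 24.9% and 22.7% of the other-tissue list and the 85.1% and 85.3% of the mesenchymal list.

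By lineage, blood names had 31.2% ± 1.09 positive spots in wound and 27.9% ± 5.39 in skin (mean ± SD, n = 3; exact permutation p = 0.5). Striated muscle names had 36.7% ± 3.82 in wound and 35.8% ± 5.05 in skin (exact permutation p = 0.9). The list of other tissues had 24.9% ± 1.38 in wound and 22.7% ± 2.00 in skin. Over all miRNA spots 43.1% to 47.8% per array were positive. The software's total signal, which it sets to 0.1 for an undetected name, summed to 0.70 to 14.2 units over the 7 blood names in wound and 0.70 to 24.1 in skin. For the 4 muscle names the sums were 0.40 to 12.2 in wound and 0.40 to 15.0 in skin, and for the 2 endothelial names 65.0 to 85.8 in wound and 72.3 to 82.5 in skin. In the blood sums miR-451a was the only name above 0.1, and in the muscle sums miR-206-3p.

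Among further markers of the same lineages, all 4 further striated muscle names (miR-133b, miR-208 and miR-499 stems) were well above background on no array, with 18.3% positive spots in wound and in skin. A second blood list of 5 names, whose members many other cells also express, had 4 names well above background on some array, 3 on each wound array and 3 to 4 on each skin array. Of its spots 40.7% were well above background in wound and 58.3% in skin. The 4 tested names included 2 higher and 1 lower, against 44.1% higher and 20.7% lower over all tested names. This count includes miR-155-5p and miR-181c-5p, which passed the filter only through the group where they were higher. The median difference of the 4 names was 0.74, floored values included, against 0.38 over all tested names. Under the 4 other scalings it was 0.12 to 0.38, against -0.19 to 0.0011 over all tested names. miR-155-5p, induced in activated leukocytes and in stimulated fibroblasts, averaged -4.00 in wound and lay at the floor of -5.30 in skin (limma adjusted p = 1.1e-04). On this scaling the floor makes the difference of 1.30 a lower bound. It also sets the 3 skin values equal (SD 0), so no spread among skin arrays enters this p-value. miR-155-5p was well above background on 3 wound and 2 skin arrays, so it passed the filter only through wound. miR-146a-5p, a feedback inhibitor of inflammatory signalling, averaged -4.10 in wound and lay at the floor in skin (at least 1.21 on this scaling, limma adjusted p = 1.4e-04). It was nevertheless well above background on 3 of 3 skin arrays. miR-181c-5p lay at the floor in wound, well above background on none of the arrays there, and averaged -3.27 in skin (limma adjusted p = 4.4e-06). It passed the filter only through skin. A name that passes through 1 group alone is chosen in part for being high there, so its direction is not independent of the filter. By the same test miR-342-3p averaged -2.79 in wound and -3.07 in skin (0.27, adjusted p = 0.131), but its direction turned under the 4 other scalings tried, and with quantile normalization it passed as lower in wound (-0.35, adjusted p = 0.043). The directions of miR-155-5p, miR-146a-5p and miR-181c-5p were the same under all 5 scalings. Their differences ran from 0.79 to 1.30, from 0.59 to 1.21 and from -2.28 to -2.04, in that order. The largest limma adjusted p over the 5 scalings was 0.017, 0.043 and 3.9e-04, in the same order. In the reported fit the floor also left no spread in the skin values of miR-146a-5p and the wound values of miR-181c-5p. The part of leukocytes in these differences was not tested. On the same arrays the leukocyte names miR-142-3p, miR-142-5p, miR-150 and miR-223-3p did not count as well above background. Their share of positive spots ran from 0% for miR-150-3p to 57.5% for miR-223-3p, with 41.7% for miR-142-3p.

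In the mesenchymal list 13 of 15 names were tested, 5 higher and 3 lower in wound, with a median difference of 0.22, which became 2 higher, 4 lower and a median of -0.24 with the 75th percentile of all probes. The smallest p-values belonged to miR-29a-3p (-1.75), which targets collagen transcripts, miR-143-3p (1.24), a smooth muscle miRNA, and miR-21a-5p (2.24), known from fibrotic tissue, each with the same direction under 5 scalings. Among keratinocyte names, 0 of 12 were well above background on each wound array and 2 on each skin array, with 9.86% positive spots in wound and 42.8% in skin, and their part in the skin values of the 13 names was not tested.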

How the data were processed

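RNA from 6 sorted cell preparations carried Cy3 and went on Agilent miRNA arrays read in 1 colour, as the labels' protocols say. The deposited scanner files hold spot intensity, background-subtracted and read with Agilent Feature Extraction 10.7.3.1, per the file headers; 0 and 1 flags accompany each spot. A further deposited file holds the authors' log2 values; how these were made is not stated in the labels or headers.

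Processed intensity was averaged over spots without outlier flags, scaled to the 75th percentile, per array, of probes well above background on all 6 arrays, averaged over the probes of a name (690 names, 1928 probes), raised to a floor of 0.0253 (-5.30 on the log2 scale) and taken to log2. Control spots were left out. The 222 names for which at least 1 probe passed that flag rule on every array of one group were tested with limma 3.58.1 in R 4.3.3. Tests were two-sided, with Benjamini-Hochberg adjustment at 0.05. A simulation with known changes was also run, and its outcome is not given here. Members outside this filter are described by intensity and flags, with exact permutation tests over arrays. The members, lists and tests were chosen with earlier results of these data known. Named are all 13 members, the 3 nearest profiles, the tested members of the second blood and muscle lists, and the 3 smallest p of the mesenchymal list; no name of the other-tissue list was tested. Keratinocyte names are given as counts. Alternatives varied the scaling, background correction (normexp on the median signal, offset 50), signal, probe summary, floor, filter, test, slide row, arrays and source of values. Figures were drawn with matplotlib 3.10.9.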

Additional observations from a re-analysis of the deposited data

How the results depend on the processing

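miR-126-3p (0.50, not passing in limma) changed direction with the 75th percentile of all probes (-0.19), quantile normalization (-0.22) and no scaling (-0.084), and was 0 with a floor 4 times higher, which lies above its signal on every array. It passed with array weights (0.71), with the slide row as a block (0.63) and without skin preparation 2; leaving out each array in turn gave 0.34 to 0.70. In all it passed in 3 of 22 settings, and the cause was not tested. The count of changed miRNAs, 144, became 78 with a floor 4 times higher and 22 with normexp. The authors' deposited table taken by column number gave -0.14 for miR-126-3p and 0 limma calls (1 at an unadjusted p under 0.05). This is no test of the processing: each of its columns equals an array of another number, so the arm numbered as wound holds wound 6, skin 1 and skin 5, and the other wound 3, wound 4 and skin 2. With no filter 110 of 690 names passed, and with the filter on all arrays 96 of 156. Of the 144, 98 were higher; 52 of 128 were higher with the 75th percentile of all probes, 66 of 132 with median scaling, 70 of 137 with quantile normalization and 54 of 108 with no scaling. The difference in names well above background per array, -0.67, became -1.67 when 1 flagged spot sufficed and 0.33 with the software's detection flag (exact permutation p = 0.2 and 1). Without skin preparation 2 the difference in the share of spots became -3.19 percentage points, against -2.09. No paired analysis was run, since the titles number the preparations as a running series and no source used here states a pairing. Mean intensities of the members outside the filter reached at most 31.6 units (miR-451a on skin 1), against a local background of 49.0 to 55.5. Small differences between groups could therefore be missed, and the smallest detectable difference was not computed.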

Other observations

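The authors' deposited table of log2 values holds all 13 names. miR-126-3p lies above the column's lowest value in 6 columns, at -3.03 to -2.28, miR-451a in 4 columns, at -5.38 to -4.29, and miR-206-3p in 3 columns, at -5.28 to -4.87. In the authors' deposited table the other 10 names sit at the lowest value of every column. These counts do not depend on which column belongs to which array.

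Of the names typical of tissues outside skin, miR-192-5p was well above background on 2 arrays and miR-194-5p on 1, all of them skin arrays. Both names are known from gut and liver, and were singled out here after their values were seen.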
